A study of Mus musculus with 5 samples.

Results

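Ribosomal protein genes encode the proteins of the cytoplasmic ribosome and serve here as a housekeeping contrast to vessel genes in binding tables of SOX7, FLI1 and ERG. They were chosen by symbol alone: protein-coding genes named Rpl or Rps followed by a number, or Rplp0, Rplp1, Rplp2 or Rpsa, without mitochondrial Mrp genes, S6 kinase genes and genes whose symbol ends in -ps and a number. In all, 52 genes met the rule and were listed in at least 1 of the 3 tables, of 9776 protein-coding genes listed in any table. RefSeq names 89 protein-coding genes of this kind, of which 31 belong to a list of small subunit proteins, 46 to a list of large subunit proteins and 12 to neither, mostly paralogs. The other 37 were in no table.

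The tables come from DamID, in which a factor is fused to the bacterial enzyme Dam and leaves methyl marks on adenines of nearby GATC sites. The groups were 1 library each of SOX7-Dam (cell line iSox7::Dam), FLI1-Dam (IFli1::Dam) and ERG-Dam (iErg::Dam), with 1 Dam-only library (iDam) as control for SOX7 and another Dam-only library (iDam) as the joint control for FLI1 and ERG, all lines being derivatives of Ainv18 mouse embryonic stem cells. FLK1+ cells taken at day 3 of embryoid body differentiation were grown for 1 day in blast medium and sorted as cKIT+ TIE2+ endothelial precursors. Each factor was expressed as a fusion in a line of its own, so factor and line cannot be told apart, and with 1 library per group there is no replicate check and no test between groups.

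A ribosome is built from a small subunit, which reads the messenger RNA, and a large subunit, which joins amino acids. Nearly every cell makes its proteins in matched amounts, and many of their genes carry intronic small nucleolar RNAs, which guide modification of other RNAs, and begin transcription at a run of pyrimidines. ETS family proteins such as GABP are known to bind sites with a GGAA core close to the start of many ribosomal protein genes in mammals. Expression was not measured in these data, so neither the levels of these genes nor the sorted cell type could be checked against markers.

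Because the enzymes and factors act on sequence, 4 upstream windows are shown first, each the 250 bases before the RefSeq start (GRCm38.p6) of a gene on which later values turn. Rpl38 (chr11:114668330-114668579, plus strand) had the highest FLI1 read density of the family, Rplp2 (chr7:141447401-141447650, plus strand) was listed for SOX7 alone, Rps13 (chr7:116334191-116334440, minus strand) had the highest SOX7 density, and Rplp0 (chr5:115559217-115559466, plus strand) was listed for FLI1 and ERG. Capitals mark CCGGAAG or its reverse complement CTTCCGG, a long form of the ETS site. Peak positions are on mm9, another build, so where each window lies relative to a peak was not determined.
Rpl38: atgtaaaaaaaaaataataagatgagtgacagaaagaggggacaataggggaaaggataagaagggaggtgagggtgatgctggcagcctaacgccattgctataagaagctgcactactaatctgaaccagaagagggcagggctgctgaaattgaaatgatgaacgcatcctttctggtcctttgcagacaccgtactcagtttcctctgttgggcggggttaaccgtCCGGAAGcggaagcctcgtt
Rplp2: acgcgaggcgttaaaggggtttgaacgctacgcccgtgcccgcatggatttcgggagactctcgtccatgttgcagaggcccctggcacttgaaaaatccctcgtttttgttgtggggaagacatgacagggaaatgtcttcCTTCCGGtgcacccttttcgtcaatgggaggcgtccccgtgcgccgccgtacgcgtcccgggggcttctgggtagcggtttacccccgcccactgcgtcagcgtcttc
Rps13: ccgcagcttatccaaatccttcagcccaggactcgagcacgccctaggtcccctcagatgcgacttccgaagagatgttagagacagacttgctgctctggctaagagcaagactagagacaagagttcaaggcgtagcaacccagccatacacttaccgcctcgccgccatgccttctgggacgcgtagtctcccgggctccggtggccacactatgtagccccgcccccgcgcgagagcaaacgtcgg
Rplp0: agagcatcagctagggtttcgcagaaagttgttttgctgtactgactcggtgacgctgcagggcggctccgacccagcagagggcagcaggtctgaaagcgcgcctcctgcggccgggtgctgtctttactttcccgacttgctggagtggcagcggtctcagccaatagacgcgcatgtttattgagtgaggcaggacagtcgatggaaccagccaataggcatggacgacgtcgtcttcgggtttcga

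The long ETS form stood in the windows of Rpl38 and Rplp2, and not in those of Rps13 and Rplp0. Windows were found for 69 of the 89 genes, with 81 windows because some genes have several starts. CCGGAAG on either strand was present in 20 of 81 windows (24.7%), against 1910 of 21263 windows of all protein-coding genes (8.98%). Within the family it was present in 12 of 45 windows of listed genes (26.7%) and in 8 of 36 windows of genes in no table (22.2%). Members listed for FLI1, an ETS factor, had it in 9 of 37 windows (24.3%), no more often than the whole family. Members listed for SOX7 had it in 8 of 25 windows, a higher share, and genes listed for both factors enter both counts. The short core GGAA, which the long form contains, was in 80 of 81 family windows and in 93.2% of all windows. AACAAT, a SOX-type site, was in 1 of 81 family windows (1.23%), that of a gene in no table, and in 8.22% of all windows. GATC, the letters that Dam methylates, was in 24 of 81 family windows (29.6%) and in 40.7% of all windows. A start on C followed by 4 pyrimidines was annotated for 15 of 81 family windows (18.5%) and 2.21% of all windows, a feature chosen after the other motifs had been counted. It was annotated for 7 of 45 windows of listed genes (15.6%) and 8 of 36 of genes in no table (22.2%). Such a tract anywhere close to the start, a looser count, was in 44 of 81 family windows (54.3%) and 31.1% of all windows. These are counts of letters in short windows and show no binding. The genes with no window included Rpl3, Rpl23a, Rpl32, Rplp1 and Rps27a.

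**Figure D1:**
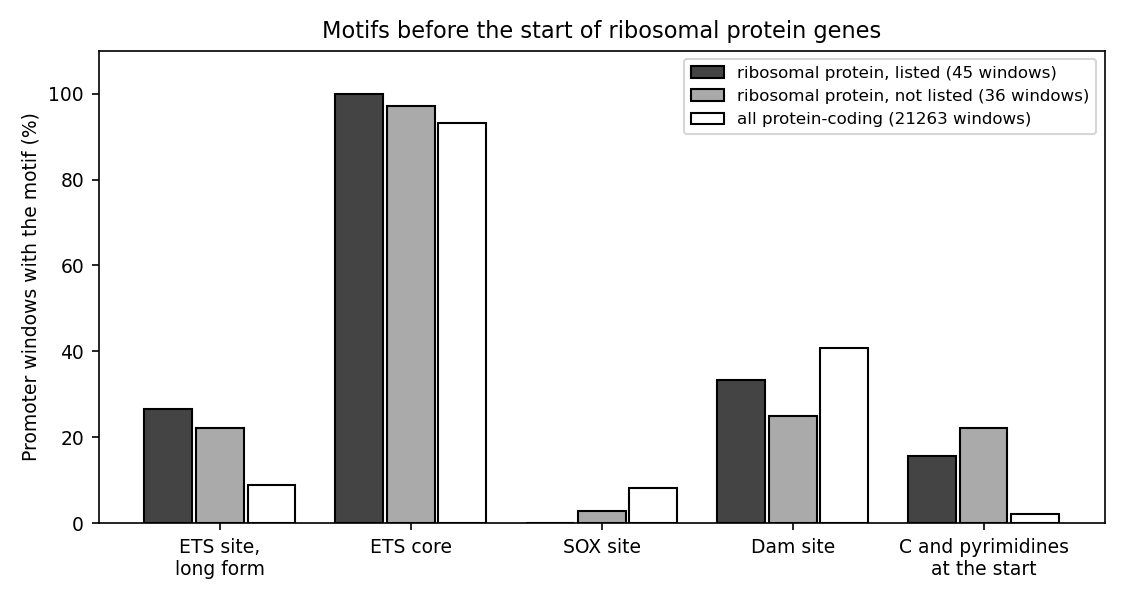
Share of promoter windows (y axis, percent) with each motif in the 250 bases before the RefSeq start, or with C and pyrimidines at the start itself, for listed ribosomal protein genes (dark bars), ribosomal protein genes in no table (grey bars) and all protein-coding genes (white bars). The long ETS form was in 26.7% and 22.2% of the family's windows and in 8.98% of all windows.

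The first comparison asked what share of the family carried an assigned peak of each factor. The SOX7 table held 30 of the 89 genes (33.7%, exact binomial interval 24.0 to 44.5), where it held 23.0% of all 21900 protein-coding genes. The FLI1 table held 41 (46.1%, interval 35.4 to 57.0), where it held 35.3% of all. The ERG table held 3 (3.37%, interval 0.701 to 9.54), where it held 5.75% of all. The SOX7 and FLI1 shares lay above the share of all genes, which fell just below the lower end of each interval, and the ERG share lay below it, with that share inside the interval. When only peaks assigned to a single gene were counted, the FLI1 share was 33.7%, against 31.7% of all protein-coding genes, and the SOX7 share was 25.8%, against 21.3%. Intervals here cover counting error only, and genes are not independent replicates.

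Vessel genes were listed more often in each table. Of 41 genes of endothelial cells, such as Cdh5, Kdr and Eng, the SOX7 table held 25 (61.0%, interval 44.5 to 75.8). The FLI1 table held 32 of them (78.0%, interval 62.4 to 89.4) and the ERG table held 10 (24.4%, interval 12.4 to 40.3). Sox7, Fli1 and Erg were left out of that list because the cell lines carry them as fusions. The intervals of ribosomal protein genes and vessel genes did not overlap for FLI1 or ERG, and for SOX7 their ends met, at 44.5 for both. The vessel list was chosen with earlier results of these data known, which limits this contrast to a description. Sets of genes also differ in length and in neighbours, and the part of both in these shares was not tested.

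**Figure D2:**
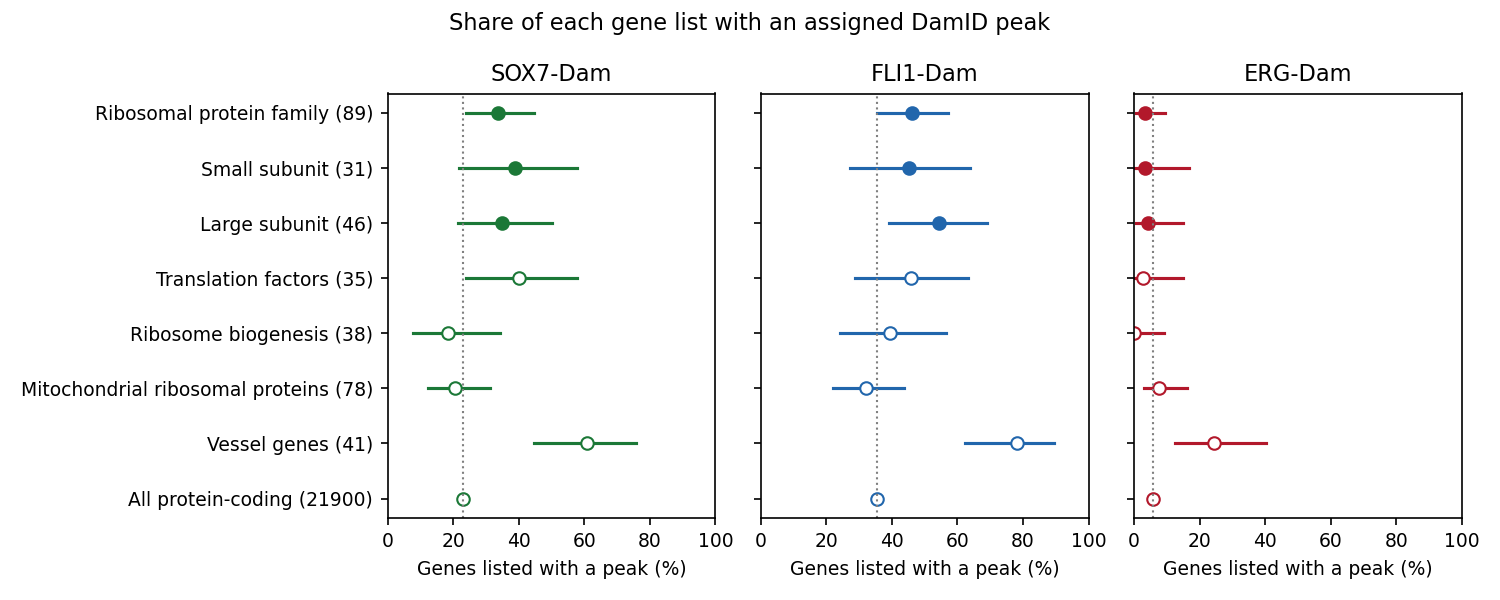
Share of each gene list with an assigned peak (x axis, percent) in the SOX7-Dam, FLI1-Dam and ERG-Dam tables, with list sizes in parentheses. Points are shares, bars are exact binomial 95% intervals, filled points are ribosomal protein lists, and dotted lines mark all protein-coding genes. The family stood at 33.7%, 46.1% and 3.37%, and vessel genes at 61.0%, 78.0% and 24.4%.

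Both subunits were represented. Among the 31 small subunit genes SOX7 peaks marked 12 (38.7%, interval 21.9 to 57.8), FLI1 peaks 14 (45.2%, interval 27.3 to 64.0) and an ERG peak 1. Among the 46 large subunit genes SOX7 peaks marked 16 (34.8%, interval 21.4 to 50.2), FLI1 peaks 25 (54.3%, interval 39.0 to 69.1) and ERG peaks 2. The intervals of the subunits overlapped in all 3 tables. Of the 12 genes outside both lists, Rpl36al and Rpl22l1 were listed for SOX7, Rpl3l, a muscle paralog of Rpl3, and Rpl10l, a testis paralog of Rpl10, for FLI1, and none for ERG (0 of 12, exact interval 0 to 26.5%). Fau, which encodes a ribosomal protein fused to a ubiquitin-like sequence but does not meet the symbol rule, was in none of the 3 tables.

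The tables overlapped in their ribosomal protein genes. SOX7 and FLI1 had 20 of them in common, which is 66.7% of the 30 SOX7 genes and 48.8% of the 41 FLI1 genes. Among all protein-coding genes 16.6% were listed for both, and the common genes made up 72.1% of the SOX7 genes and 47.0% of the FLI1 genes, shares close to those of the family. Vessel genes had 21 in common, 84.0% of those listed for SOX7 and 65.6% of those listed for FLI1. Rpl3 alone was in all 3 tables (1 of 89, 1.12%), against 3.35% of all protein-coding genes and 6 of 41 vessel genes. Besides Rpl3, the genes common to SOX7 and FLI1 included Rpl10, Rpl11, Rpl12, Rpl13a, Rpl15, Rpl24, Rpl26, Rpl27a, Rpl32, Rpl34, Rpl38, Rplp1, Rps13, Rps15a, Rps21, Rps23, Rps24 and Rps27a. The 10 members held by the SOX7 table alone were Rpl22l1, Rpl23a, Rpl36al, Rpl39, Rplp2, Rps16, Rps20, Rps26, Rps29 and Rps7. The 20 held by the FLI1 table alone included Rpl10l, Rpl19, Rpl21, Rpl23, Rpl28, Rpl37a, Rpl3l, Rpl5, Rpl6, Rpl7, Rpl8, Rpl9, Rps10, Rps14, Rps19, Rps3, Rps3a1 and Rpsa. ERG alone had 1, Rps12, while Rplp0 was shared by FLI1 and ERG, whose peaks were called against the same Dam-only library.

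Read density, the reads per kb of a gene's assigned peaks, is not scaled to library size and was therefore ranked within each table among its protein-coding genes. Listed ribosomal protein genes had a median percentile of 53.0 in the SOX7 table, where vessel genes had 63.0 and all protein-coding genes 49.9. In the FLI1 table the medians were 61.5 for ribosomal protein genes, 61.6 for vessel genes and 49.9 for all. In the ERG table they were 62.5 over 3 ribosomal protein genes, 66.8 over 10 vessel genes and 49.6 for all. The order-statistic interval of the family's median, 34.7 to 72.4 for SOX7 and 36.9 to 68.6 for FLI1, contained the median of all genes in both tables. When only genes with 1 peak were ranked, among themselves, the SOX7 median of the family was 44.9, below the middle of that ranking. Within the family, small and large subunit genes had medians of 62.8 and 47.6 in the SOX7 table and of 63.6 and 61.5 in the FLI1 table. In the SOX7 table their quartile ranges overlapped, 38.1 to 74.5 over 12 small subunit genes and 14.5 to 75.8 over 16 large subunit genes. The family spread over most of each scale, between percentiles 3.79 and 94.9 for SOX7 and between 2.54 and 98.6 for FLI1. Above percentile 90 of the SOX7 table stood 1 of 30 members (3.33%), against 3 of 25 vessel genes and 9.91% of all protein-coding genes. Above percentile 90 of the FLI1 table stood 5 of 41 members (12.2%), against 6 of 32 vessel genes (18.8%) and 9.73% of all. The vessel gene Egfl7, with a secreted product of endothelial cells, stood at percentile 99.97 of the SOX7 table with 3041 reads.

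**Figure D3:**
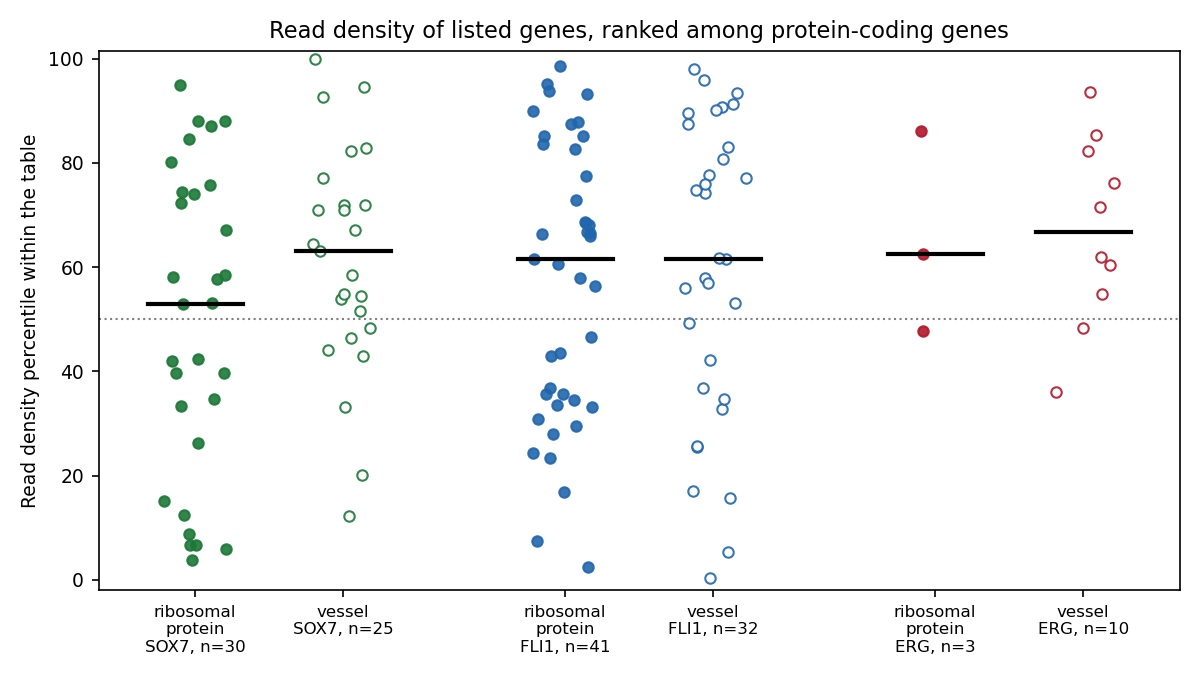
Read density percentile (y axis) of each listed gene within its table, for ribosomal protein genes (filled) and vessel genes (open) in the SOX7, FLI1 and ERG tables. Each point is a gene and black lines are medians, with 53.0 against 63.0 in the SOX7 panel, 61.5 against 61.6 in the FLI1 panel and 62.5 against 66.8 in the ERG panel.

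Rps13, Rpl11, Rpl26, Rps15a and Rplp2 were the 5 densest SOX7 members, and Rpl38, Rpl26, Rplp1, Rpl23 and Rps3a1 the 5 densest FLI1 members. Rps13, a small subunit protein, led the family in the SOX7 table with 125 reads and 119 reads per kb (95% Poisson interval 99.1 to 142), at percentile 94.9, in a peak at chr7:123478148-123479198 (mm9). In the FLI1 table Rps13 had 93 reads and 84.5 reads per kb (68.2 to 104), at percentile 66.7, in a peak that contained the SOX7 peak, at chr7:123478103-123479203. Rps15a had 194 SOX7 reads in 1 peak at percentile 87.1, and 453 FLI1 reads over 3 peaks at percentile 68.4. No SOX7 peak of Rps15a overlapped a FLI1 peak, the nearest being 3245 bp away. Rps3a1, given as Rps3a in the files, was listed for FLI1 alone, with 238 reads and 132 reads per kb (116 to 150.1) at percentile 90.04. Rps12 was listed for ERG alone, with 44 reads at percentile 47.8, in a peak at chr10:23506058-23507508 that is also assigned to the small nucleolar RNA gene SNORD101.

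Large subunit genes made up 4 of the 5 densest FLI1 members, and 25 of all 41 members listed for FLI1. Rpl38, whose loss in mice disturbs the body plan, had 310 FLI1 reads and 229 reads per kb (205 to 257), at percentile 98.6, and 72 SOX7 reads and 68.5 reads per kb (53.7 to 86.4), at percentile 74.4. Rpl26, a protein near the exit of the peptide tunnel, was among the 5 densest in both tables, with 303 FLI1 reads at percentile 95.1 and 279 SOX7 reads at percentile 88.0. Its SOX7 peak at chr11:68718698-68721798 contained the whole FLI1 peak at chr11:68719434-68721284. Rplp1 and Rplp2 encode the acidic proteins of the ribosomal stalk. Rplp1 was listed for FLI1 with 152 reads at percentile 93.7 and for SOX7 with 129 reads at percentile 80.1, whereas Rplp2 was listed for SOX7 alone, with 100 reads at percentile 84.6, and lay 10955 bp from the nearest FLI1 peak. Rpl23 had 519 FLI1 reads over 2 peaks, the most of any member in that table, at percentile 93.3, and was not listed for SOX7.

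Rpl3, a protein close to the site of peptide bond formation, carried 506 reads over 3 FLI1 peaks, 199 reads over 2 SOX7 peaks and 82 reads in 1 ERG peak. Its percentiles were 56.4 in the FLI1 table, 53.1 in the SOX7 table and 86.1 in the ERG table. The ERG peak at chr15:79905774-79906874 met the SOX7 peak at chr15:79905829-79908629 over 1045 bp and the FLI1 peak at chr15:79905912-79907562 over 962 bp, the ERG and FLI1 peaks having the same Dam-only control. At another place assigned to Rpl3, the SOX7 peak at chr15:79911679-79912779 lay inside the FLI1 peak at chr15:79910512-79913612, with no ERG peak there. Rplp0, which anchors the stalk, had 252 FLI1 reads at percentile 72.8 and 35 ERG reads (24.4 to 48.7) at percentile 62.5. The ERG peak of Rplp0 at chr5:116013399-116014249 met its FLI1 peak at chr5:116013421-116016171 over 828 bp. Whether any of these peaks lies in an exon, an intron or a promoter was not determined.

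**Figure D4:**
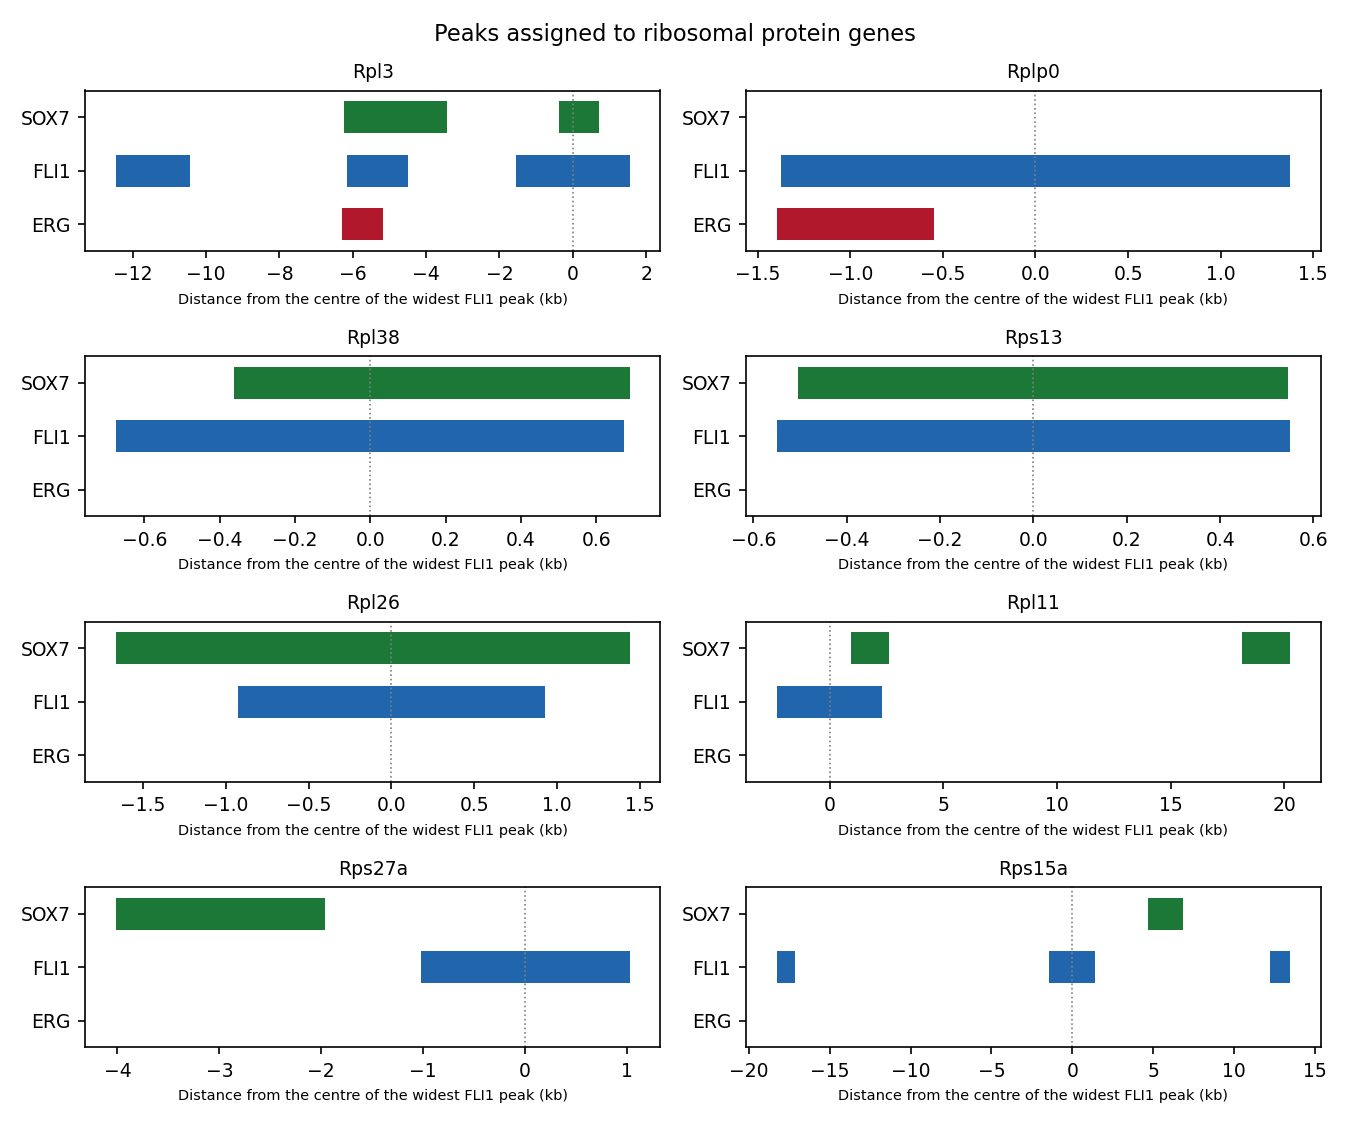
Peaks of SOX7 (green), FLI1 (blue) and ERG (red) assigned to 8 ribosomal protein loci, as distance from the centre of the widest FLI1 peak of each locus (x axis, kb). Bars span each peak, and an empty row means that no peak of that factor is assigned to the gene. At Rpl3 the peaks of all 3 factors met, while at Rps27a and Rps15a the SOX7 and FLI1 peaks lay apart.

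Mutations of several ribosomal protein genes cause Diamond-Blackfan anaemia in humans, a failure of red cell production. Of 9 such genes, the FLI1 table held 5, the SOX7 table held 4 and the ERG table held 0 (exact interval 0 to 33.6%). Rps19, the gene most often affected, had 339 FLI1 reads over 2 peaks, 111 reads per kb (99.6 to 124), at percentile 83.5. Rps24 was listed for both, with 322 FLI1 reads at percentile 87.9 and 179 SOX7 reads at percentile 75.8, and its peaks overlapped over 1986 bp. Rpl11, whose protein binds Mdm2 when ribosome assembly fails, was also listed for both, with 399 FLI1 reads at percentile 68.1 and 339 SOX7 reads over 2 peaks at percentile 88.0. Rps10 and Rpl5 were listed for FLI1 alone, at percentiles 85.1 and 61.5, and Rps7 and Rps26 for SOX7 alone, at percentiles 67.2 and 26.3. Rpl35a was in no table. With 9 genes the exact intervals, 13.7 to 78.8% for SOX7 and 21.2 to 86.3% for FLI1, contain the shares of the whole family and also the 23.0% and 35.3% of all protein-coding genes. The ERG interval contains the 5.75% of all.

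Most listed ribosomal protein genes carried a single peak. This was so for 27 of 30 members in the SOX7 table, 30 of 41 in the FLI1 table (73.2%) and all 3 in the ERG table. Vessel genes had a single peak in 36.0% of SOX7, 46.9% of FLI1 and 70.0% of ERG cases. The shares of all protein-coding genes were 65.7%, 59.9% and 91.0%. The most peaks at any member were 2 for SOX7 and 3 for FLI1, against 7 and 8 at vessel genes. Peak width was similar to that at vessel genes and larger than that at all protein-coding genes. The SOX7 median was 1725 bp at ribosomal protein genes, 1750 bp at vessel genes and 1450 bp at all protein-coding genes. The FLI1 median was 1800 bp at ribosomal protein genes, 1850 bp at vessel genes and 1650 bp at all protein-coding genes.

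Peaks of the family were often assigned to more than 1 gene. Of its unique peaks, 15 of 53 for FLI1 (28.3%) and 6 of 32 for SOX7 (18.8%) carried another gene as well, against 6.49% and 6.45% of the peaks of vessel genes and 6.92% and 5.46% of those of all protein-coding genes. Small RNA genes were part of this: 8 FLI1 members and 5 SOX7 members shared a peak with a small nucleolar or small nuclear RNA gene. The matching counts for vessel genes and all protein-coding genes are not given here, so whether this is unusual cannot be said. Rpl23a shared its SOX7 peak, the widest of the family at 6350 bp, with Nek8, Tlcd1, Snord42a and Snord4a. That peak met a FLI1 peak assigned to Nek8 and Tlcd1 only, so Rpl23a is absent from the FLI1 table although a FLI1 peak covers 3036 bp of its SOX7 peak.

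The next question was whether SOX7 and FLI1, set against separate Dam-only libraries, marked the same stretches at these genes. Of 32 unique SOX7 peaks at ribosomal protein genes, 16 met a FLI1 peak over 1 bp or more (50.0%, interval 31.9 to 68.1), against 31 of 62 at vessel genes (50.0%, 37.0 to 63.0) and 35.1% at all protein-coding genes. In the other direction 15 of 53 FLI1 peaks at the family overlapped a SOX7 peak (28.3%, 16.8 to 42.3), against 41.6% at vessel genes and 20.9% at all protein-coding genes. Of the 3 ERG peaks 1, that of Rpl3, overlapped a SOX7 peak (33.3%, 0.840 to 90.6), against 42.9% at vessel genes and 446 of 1392 peaks at all protein-coding genes (32.04%). The family's interval for SOX7 peaks contains both the vessel share and the share of all genes. SOX7 and FLI1 peaks of the family and of vessel genes were wider at the median than those of all genes. The part of width in these shares was not tested.

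Among the 20 genes listed for both SOX7 and FLI1, the genes' own peaks overlapped at 15 (exact binomial interval 50.9 to 91.3%), against 14 of 21 vessel genes (66.7%) and 62.5% of 3636 protein-coding genes. The shared stretch was between 519 and 3445 bp, with a median of 1100 bp. At the other 5 genes the peaks lay apart, with the nearest FLI1 peak 408 bp away at Rpl34, 936 bp at Rps27a, 1489 bp at Rps23, 3245 bp at Rps15a and 12774 bp at Rpl24. Of the 10 members that were listed for SOX7 and not for FLI1, only Rpl23a had a FLI1 peak across its SOX7 peak. The median distance to the nearest FLI1 peak was 31232 bp, with a range from 0 at Rpl23a to 181585 bp. These members were picked for having no assigned FLI1 peak, so little overlap largely follows from that choice. The same values for all protein-coding genes listed for SOX7 alone are not given here.

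Spearman's rho between the SOX7 and FLI1 percentiles was 0.77 over the 20 genes, -0.04 over 21 vessel genes and 0.42 over all 3636 protein-coding genes listed for both. Of the 20 genes, 9 stood above percentile 50 in both tables and 7 below it in both. Among the 3636 protein-coding genes 1300 stood above it and 1072 below it in both. Among the 21 vessel genes 12 stood above it and 1 below it in both. Rpl26, Rplp1, Rps24, Rpl38 and Rps27a stood above percentile 70 in both, and Rpl10, Rps21, Rpl27a and Rpl34 below percentile 35 in both. At 15 of the 20 genes the peaks overlap, with 34.6 to 100% of the SOX7 peak shared, and a pair of the points rests on 1 peak, so the coefficient is a description of these lists. The part of base composition and GATC sites was not tested.

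**Figure D5:**
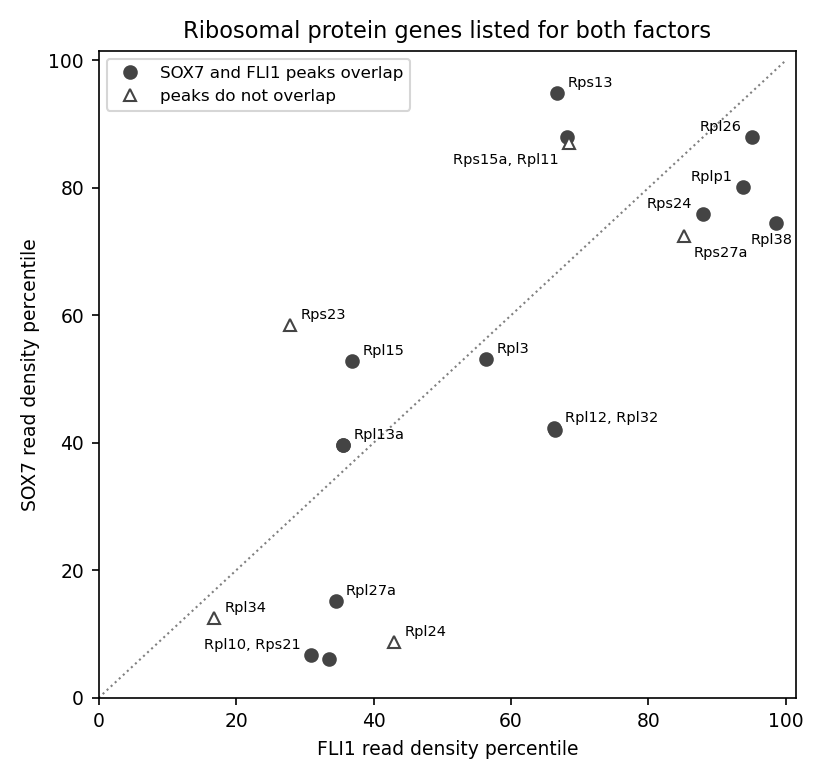
Read density percentile in the SOX7 table (y axis) and the FLI1 table (x axis) for the 20 ribosomal protein genes listed for both factors. Filled circles are the 15 genes whose SOX7 and FLI1 peaks overlap, open triangles the 5 whose peaks do not, and the dotted line marks equal percentiles. Genes high in one table were mostly high in the other.

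The lowest SOX7 members included the X-linked genes. Rpl39 had 38 SOX7 reads at percentile 3.79 and Rpl10 had 38 at percentile 6.75, and Rpl10 had 79 FLI1 reads at percentile 30.9, while the X-linked Rps4x and Rpl36a were in no table. All X-linked protein-coding genes had a low median in these tables, percentile 10.6 for SOX7 and 11.9 for FLI1, against 51.9 and 51.4 for genes on other chromosomes. Autosomal members were as low in places, with Rps21 at percentile 6.02 of the SOX7 table with 26 reads (17.0 to 38.1) and Rps14 at percentile 7.41 of the FLI1 table with 104 reads. The part of chromosome or copy number in these low ranks was not tested.

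Other genes of protein synthesis were set beside the family. Of 35 translation factor genes, the SOX7 table held 14 (40.0%, interval 23.9 to 57.9), the FLI1 table held 16 (45.7%, interval 28.8 to 63.4) and the ERG table held 1 (2.86%), shares near those of ribosomal protein genes. The listed translation factors had a median density percentile of 38.1 in the SOX7 table and 50.1 in the FLI1 table, and they spread over nearly the whole of both scales. At the high end, Eef1g, a subunit of the complex that delivers transfer RNA to the ribosome, stood at percentile 99.78 of the FLI1 table with 403 reads per kb and at 83.7 of the SOX7 table. Eif6, which keeps the subunits apart, stood at percentile 99.6 of the FLI1 table, and Eif1, which helps to choose the start codon, at 96.0 of the SOX7 table. At the low end, the initiation factor genes Eif2s3x and Eif1ax stood at percentiles 0.153 and 2.85 of the SOX7 table, and the elongation factor gene Eef1b2 at 3.18 of the FLI1 table. The part of chromosome in the low ranks of these translation factor genes was not tested. Eif3i was listed for all 3 factors. Of 38 ribosome biogenesis genes, the FLI1 table held 15 (39.5%, interval 24.0 to 56.6), the SOX7 table held 7 (18.4%, interval 7.74 to 34.3) and the ERG table held 0 (exact interval 0 to 9.25%). The intervals of both lists contain the share of all protein-coding genes for FLI1, and that of the translation factors lies just above it for SOX7, with a lower end of 23.9% against 23.0%.

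Ribosomal protein genes have many near-identical retrocopies in the mouse genome, and the sources do not say how reads with several matches were placed. Values that rest on exons, which the copies share, are therefore uncertain for each member. The depth behind a member was 19 to 344 reads in the SOX7 table, 76 to 519 reads in the FLI1 table and 35 to 82 reads in the ERG table, so ranks of the lowest SOX7 and ERG genes are the least precise.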

How the data were processed

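DamID libraries of SOX7, FLI1 and ERG in mouse endothelial precursors, 1 per group, were analysed from 3 tables that list genes with assigned peaks; the 2 Dam-only libraries entered through the authors' peak calling and have no values of their own here. Each deposited count is the whole number of reads in the peaks of a gene. Per the file headers, the other value is reads per kb, a coverage signal, which equalled the deposited count times 1000 over summed peak length within 1% for all genes. Peaks were called relative to Dam-only libraries, per the labels, on mm9, per the submitters' processing notes. Peak positions are printed as deposited, and whether starts count from zero is not stated. Not given in the sources used here: aligner, caller, threshold, treatment of multiply matching reads and assignment rule.

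Symbols were matched, older symbols included, to 21900 protein-coding genes of RefSeq (GRCm38.p6, names and promoter windows only); 96.5% of protein-coding entries matched for SOX7, 95.6% for FLI1 and 95.7% for ERG. Density percentiles are mid-ranks. Alternatives, described in the closing part, changed the members, the ranking, the part of each table used and the overlap rule. Intervals are exact (Clopper-Pearson) binomial or Poisson, and order-statistic for medians, at 95%, and cover counting error only, because amplified reads carry no molecular identifiers. No test was run and no p-value is given. Named genes are members in all 3 tables, the 5 densest per table and the Diamond-Blackfan genes; others, including those of the overlap and X-linked passages, were chosen after their values were seen. Members and gene lists were chosen with earlier results of these data known. Some members enter the counts and are not reported here by name. The overlap share of ERG with FLI1 peaks is not given, because both were called against the same control. Overlap and percentile steps were tested on simulated data. Python 3.11.15, pandas 2.3.3 and scipy 1.17.1 were used.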

Additional observations from a re-analysis of the deposited data

How the results depend on the processing

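Of 29 alternatives, 24 stayed within the binomial interval of the reported share, or within the order-statistic interval of the reported median, and 5 moved beyond it. Those intervals are wide, and 4 more alternatives for the ERG median, over 3 genes, could not be judged. Within the denser 50% of protein-coding genes, the share of the family listed was 18.0% for SOX7 and 27.0% for FLI1, against 11.5% and 17.7% of all protein-coding genes. Among the 1262 densest genes of each table it was 7.87% for SOX7 and 11.2% for FLI1, against 5.75% of all in both tables. Both settings keep fewer genes by construction. With peaks assigned to 1 gene only, the FLI1 share was 33.7%, against 46.1% with all peaks, and that of all protein-coding genes was 31.7%, against 35.3%. Ranked among genes with 1 peak, the SOX7 median was 44.9, inside its interval but below the middle, against 53.0 over all members, and the FLI1 median was 65.7. The subunit lists alone, the addition of genes outside the symbol rule, ranking by read count or among all genes, and other overlap rules moved no value beyond its interval. Nor did keeping the denser 50% of the peaks of both tables. There 7 of 19 SOX7 peaks of the family met a FLI1 peak (36.8%), against 50.0% of all its SOX7 peaks. The interval of that 50.0%, 31.9 to 68.1, is wide. The matching share for all protein-coding genes under this setting is not given here, so whether the fall is particular to the family cannot be said. The ranking over subunit lists alone and the start on C and pyrimidines were added after seeing the data. For ERG, 3 listed genes limit every statement, and alternatives there say nothing about stability. No paired analysis was possible because each group has 1 library.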

Other observations

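Mitochondrial ribosomal proteins, which translate the messages of the mitochondrial genome, differ from the cytoplasmic family in where they act, and their genes are named Mrpl or Mrps. Of 78 such genes, the SOX7 table held 16 (20.5%, interval 12.2 to 31.2), the FLI1 table held 25 (32.1%, interval 21.9 to 43.6) and the ERG table held 6 (7.69%, interval 2.88 to 16.0), each interval containing the share of all protein-coding genes. Mrpl33, Mrps23, Mrps31 and Mrps33 were in all 3 tables (5.13%, interval 1.41 to 12.6), against 3.35% of all protein-coding genes, a share inside the interval. Mrps33 stood at percentile 94.2 of the FLI1 table with 738 reads, at 59.6 of the ERG table and at 31.1 of the SOX7 table with 369 reads.

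Entries with a -ps symbol, mostly retrocopies of ribosomal protein genes, were left out of the family. They were listed 18 times for SOX7, 20 times for FLI1 and 3 times for ERG, among 6530, 10246 and 1579 genes of any type. How many such entries the annotation holds is not given here, so whether these counts are high or low cannot be said. Rps13-ps1 was in all 3 tables near the top, ranked among all genes of each table: at percentile 98.6 of the SOX7 table with 407 reads over 2 peaks, 98.1 of the FLI1 table with 260 reads and 96.9 of the ERG table with 147 reads. Rpl31-ps6 stood at percentiles 97.5 for SOX7 and 97.9 for FLI1, although Rpl31 itself was in no table. The medians of these entries were percentile 45.6 for SOX7, 46.9 for FLI1 and, over 3 entries, 25.4 for ERG. How reads that match a gene and its copies were placed was not tested.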
